A study of Mus musculus with 12 samples.

Results

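The 4 libraries described here, of 12 in the series, carry the label 4T1, the name of an epithelial tumour line from mouse mammary gland: 2 from cells given mRNA encoding uniSTING and 2 from cells given Mock mRNA, which encodes the fluorescent protein EGFP. They were taken by their labels, and each group holds a preparation 1 and a preparation 2. All 4 are labelled wild type. uniSTING is, per the series title, a mimic of STING. The labels name a transfection reagent and SS-OP lipid nanoparticles as carriers of the mRNA without saying which was used for these libraries, and they give no time of treatment. The other 8 libraries carry the label DC2.4, a line of immortalized dendritic cells from mouse. Of these, 4 received the same pair of mRNAs, and 4 were kept 24 h with vesicles shed by uniSTING-treated (EXOuniSTING) or Mock-treated (EXOmock) cells named as 4T1.

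STING is an adaptor of the endoplasmic reticulum that is engaged by a cyclic dinucleotide made when DNA appears in the cytosol. Through the kinase TBK1 it activates IRF3, which switches on type I interferon, and it also feeds into NF-kB. Secreted interferon then acts through its receptor, JAK kinases and STAT factors on a large set of interferon-stimulated genes, and in macrophages and dendritic cells this arm is usually strong.

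The expressed genes went against the label. Ptprc (CD45), a phosphatase found on nucleated blood cells, had 5547 and 7875 counts in the Mock libraries and 6325 and 8490 counts in the uniSTING libraries. Spi1, which encodes the myeloid factor PU.1, had 3390 and 4810 counts in Mock and 3691 and 4779 counts in uniSTING. Tyrobp, an adaptor of myeloid receptors, stood at 311.2, 311.7, 276.7 and 276.5 counts-per-million (CPM) of the library total, and Csf1r, the receptor for the macrophage growth factor CSF1, at 517.7, 525.5, 497.9 and 492.3 CPM, both in the order Mock 1, Mock 2, uniSTING 1, uniSTING 2. All 4 genes were thus abundant in each of the 4 libraries.

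Most epithelial genes were near the floor: of 22 markers, all but St14 had at most 28 counts in any of the 4 libraries. St14 (matriptase), a membrane protease, stood at 158.2, 164.4, 159.9 and 166.2 CPM, against 233.5 to 250.9 CPM in the mRNA libraries labelled DC2.4. Epcam, an adhesion molecule of epithelia, had 5 counts in each preparation 1 library and 0 in each preparation 2 library, and the keratin Krt8 had 15, 2, 15 and 0 counts. In those DC2.4 libraries Epcam, Krt8 and Spi1 stood the other way round, with 22211 to 32672 counts of Krt8, 5041 to 7971 of Epcam, and 1 to 5 of Spi1. The 1 epithelial marker called between the groups was Grhl2, an epithelial transcription factor, with 1, 1, 12 and 20 counts. The 4 vesicle libraries also expressed leukocyte genes, with 301.5 to 310.3 CPM of Ptprc. Levels of some markers differed, as with Lyz2 at 5769 to 8638 CPM there and 2854 to 3281 CPM here. A count of 0 allows up to 3 counts, or 0.115 to 0.168 CPM in the 4 libraries described here, which covers counting error only. These 4 are therefore called the libraries labelled 4T1, and every direction below rests on their Mock and uniSTING labels.

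**Figure D1:**
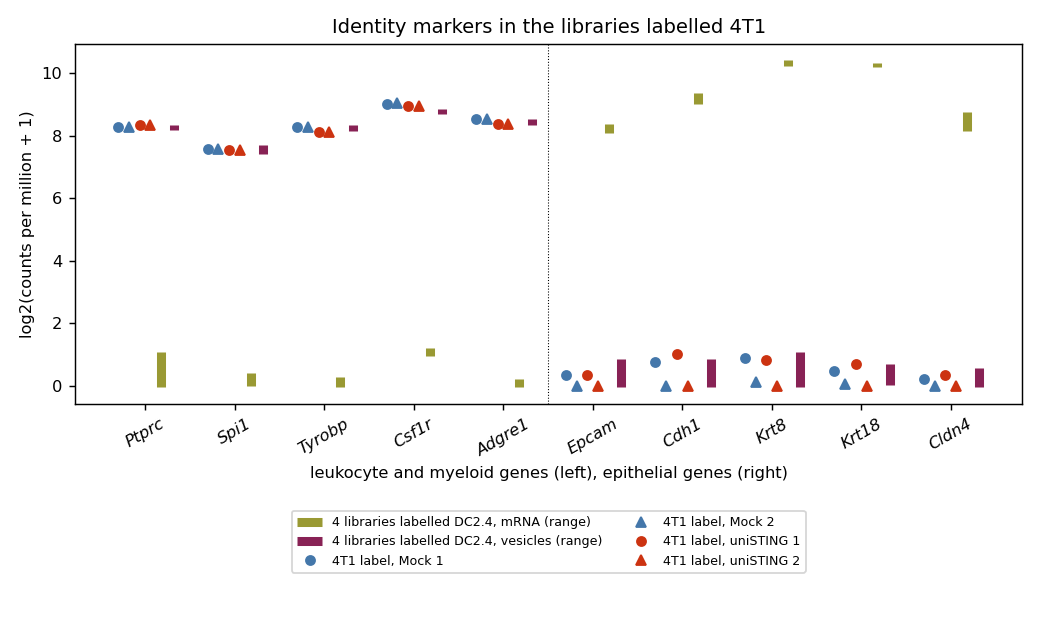
Levels of 5 leukocyte and myeloid genes and 5 epithelial genes as log2(CPM + 1), with 1 point per library labelled 4T1 and bars for the range over the 4 libraries of each other set. The leukocyte genes shown were high and the epithelial genes shown near 0 in all 4 libraries labelled 4T1, the reverse of the mRNA libraries labelled DC2.4.

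Macrophage and monocyte markers were divided. Adgre1 (F4/80) stood at 371.2, 373.4, 334.8 and 332.8 CPM, and Gpnmb, a lysosomal membrane glycoprotein, at 7608, 7638, 6039 and 6016 CPM. Other members of that list were low. Cd163 had 0, 0, 8 and 4 counts, Ccr2 had 1, 0, 4 and 4, and Cx3cr1 had 22, 26, 20 and 22. C1qa stood at 2.29, 1.35, 3.16 and 2.27 CPM. Dendritic cell markers were divided as well. Irf8, a factor of dendritic cells and monocytes, stood at 145.5, 146.9, 126.7 and 127.2 CPM, Itgax (CD11c) at 24.8, 26.3, 17.4 and 15.5 CPM, and Zbtb46 at 9.68, 11.7, 9.78 and 10.7 CPM. Several genes that define dendritic cell subsets were at or near 0: Cd209a and Siglech had 0 counts in all 4 libraries, Clec9a had 1 count in 1 library, and Flt3 had 1 count in 1 library. MHC class II genes were also near the floor, with 12, 0, 9 and 0 counts of H2-Aa. No lymphocyte, granulocyte, fibroblast or endothelial marker that was tested passed the test between the groups.

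Total counts were 17.9 and 25.2 M in Mock and 19.6 and 26 M in uniSTING, and mitochondrial genes took 2.26 to 2.41% of counts. Both libraries of a group carry the same code in the file headers and differ in its suffix, whose meaning is not given, and the labels do not say that preparations are separate cultures, so every p-value below rests on a spread that may be technical only. Differences between libraries were compared with counting error on the scale of variance, over genes with at least 20 summed counts. At the median gene this ratio of variances was 1.45 in Mock and 1.48 in uniSTING. It was 6.22 and 7.41 between treated and control libraries of the same preparation. Preparation 1 held transcripts of other tissues that preparation 2 lacked. Ins2 (insulin) had 854 and 1296 counts and Sftpc (a lung surfactant protein) had 714 and 729 counts in preparation 1 of Mock and uniSTING, and both had 0 in preparation 2. These genes did not pass the test between the groups. Gapdh, often used as a reference gene, had 335 counts in Mock 1 and 4350, 3791 and 5150 counts in Mock 2, uniSTING 1 and uniSTING 2, and was not called (edgeR quasi-likelihood test, adjusted p = 0.178). It was called without Mock 2, without a filter on low counts and by limma-voom, at log2 changes of 3.37, 0.91 and 1.5. Of 3933 called genes with enough counts to compare, 3930 had a fold of the same sign in both preparations. The calls were made from these same libraries, so this agreement is not a separate check of them.

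The comparison asks how the cells of these libraries differed after uniSTING mRNA, which the series' design ties to type I interferon signalling and to downstream pathways examined without a preset choice. Many genes differed by a little. Of 14863 genes tested, 28.3% were called at an adjusted p below 0.05 in edgeR's quasi-likelihood test with Benjamini-Hochberg adjustment: 1878 (12.6%) were higher and 2331 (15.7%) lower in uniSTING. Without Mock 2, 1480 genes were called lower. The median size of a called change was 0.24 on the log2 scale. Calls of at least 2-fold numbered 165 (1.11%) higher and 104 (0.7%) lower, against 52 and 37 in DESeq2's Wald test, and 247 of these 269 genes stayed under 5 CPM in the higher group. The 2-fold counts depended on single libraries: the higher ones fell to 87 without Mock 2 and 106 without uniSTING 1, and the lower ones to 64, 67 and 57 without Mock 1, uniSTING 1 and uniSTING 2. Among the 10000 genes at or above 5 CPM, 11 rose and 11 fell at least 2-fold, and 12 of those 22 were pseudogenes. Both uniSTING libraries lay above both Mock libraries in 33.9% of all genes tested and below them in 29.6%. Such separate groups were found in 4204 of the 4209 genes called, so separation adds little to a call where it is mentioned below. The shares of all genes, set beside gene lists below, cover tested genes of every level and mRNA length. Among 947 protein-coding genes with short mRNAs (297 to 1243 bases, ribosomal protein genes left out), 268 rose and 143 fell. Among 946 with long mRNAs (6310 to 123179 bases), 144 rose and 205 fell. Whether a list differed from genes of like level and length was not tested.

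**Figure D2:**
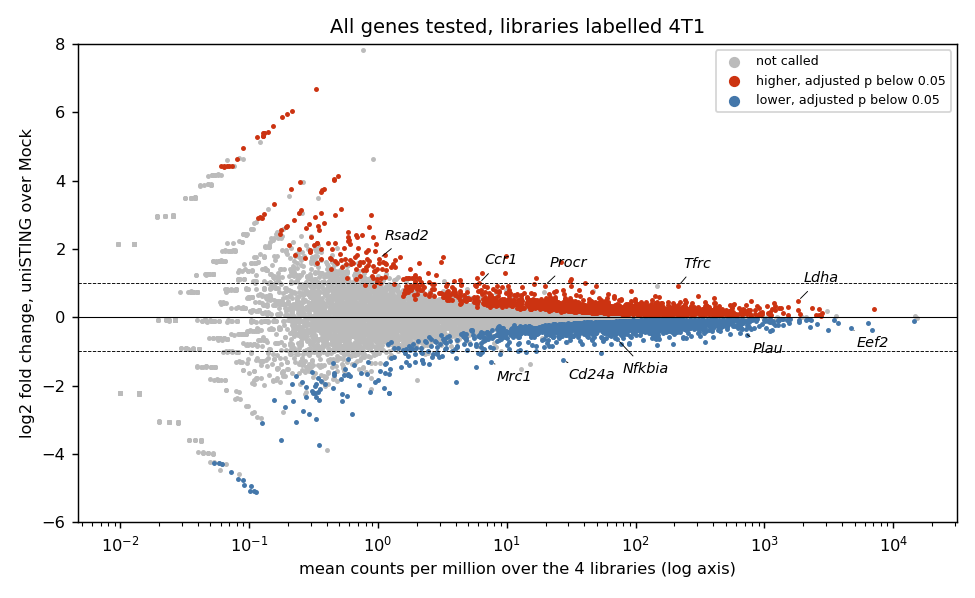
Log2 fold change of uniSTING over Mock against mean CPM (log axis) for the genes tested in the libraries labelled 4T1, with called genes in colour and dashed lines at 2-fold. Called changes of well expressed genes lie mostly within the dashed lines, and the larger folds belong to genes of few counts.

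The promoters below belong to members of gene lists that hold known targets of named DNA-binding factors. Each runs from 250 bases before to 50 bases after the start of the gene, 5′ to 3′ on the strand of the gene, from RefSeq on GRCm38.p6, an earlier mouse assembly than the GRCm39 of the counts. Capitals mark matches, on either strand, to GGANTTTCC for NF-kB in the first pair, to TTTCCCGC or TTTGGCGC for E2F in Mcm5, and to GAAANNGAA for the interferon response element in Isg15 and Rsad2. Nfkbia (chr12:55492598-55492897, minus strand) and Tnfaip3 (chr10:19015361-19015660, minus strand) encode inhibitors of NF-kB, Mcm5 (chr8:75109259-75109558, plus strand) a subunit of the replicative helicase, Isg15 (chr4:156200769-156201068, minus strand) a ubiquitin-like protein induced by interferon, and Rsad2 (chr12:26456403-26456702, minus strand) an antiviral enzyme. The 3 matches of Isg15 overlap one another.
Nfkbia: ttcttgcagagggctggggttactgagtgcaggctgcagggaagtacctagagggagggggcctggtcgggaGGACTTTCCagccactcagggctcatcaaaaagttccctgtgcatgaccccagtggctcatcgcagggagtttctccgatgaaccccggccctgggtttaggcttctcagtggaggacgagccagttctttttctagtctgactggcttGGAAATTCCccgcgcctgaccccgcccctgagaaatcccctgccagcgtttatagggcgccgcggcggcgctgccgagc
Tnfaip3: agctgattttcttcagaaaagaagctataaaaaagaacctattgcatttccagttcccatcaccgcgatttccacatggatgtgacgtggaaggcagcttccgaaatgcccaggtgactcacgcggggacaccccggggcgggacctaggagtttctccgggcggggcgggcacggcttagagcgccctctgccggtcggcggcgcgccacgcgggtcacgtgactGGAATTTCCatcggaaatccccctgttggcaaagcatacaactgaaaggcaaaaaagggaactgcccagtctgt
Mcm5: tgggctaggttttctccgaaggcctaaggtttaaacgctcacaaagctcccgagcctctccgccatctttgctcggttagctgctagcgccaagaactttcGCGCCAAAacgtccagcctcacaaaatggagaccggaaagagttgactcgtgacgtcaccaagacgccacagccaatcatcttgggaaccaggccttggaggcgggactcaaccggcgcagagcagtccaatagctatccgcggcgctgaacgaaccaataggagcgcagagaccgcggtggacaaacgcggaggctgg
Isg15: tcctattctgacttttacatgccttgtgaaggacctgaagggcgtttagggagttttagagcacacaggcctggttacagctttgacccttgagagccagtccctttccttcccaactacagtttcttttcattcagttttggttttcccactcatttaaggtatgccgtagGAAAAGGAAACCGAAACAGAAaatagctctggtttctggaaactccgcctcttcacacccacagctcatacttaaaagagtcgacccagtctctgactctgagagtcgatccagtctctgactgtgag
Rsad2: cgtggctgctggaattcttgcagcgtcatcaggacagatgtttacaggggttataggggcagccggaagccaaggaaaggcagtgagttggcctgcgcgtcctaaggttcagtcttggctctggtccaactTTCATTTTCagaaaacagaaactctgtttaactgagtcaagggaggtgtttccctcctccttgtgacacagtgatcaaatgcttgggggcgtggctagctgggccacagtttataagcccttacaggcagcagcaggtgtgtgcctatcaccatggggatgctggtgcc

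The NF-kB letters were found in 12 of 53 promoters of NF-kB target genes (22.6%) and in 1.25% of all 32851 promoters of that length in the table. The interferon response letters were found in 34 of 65 promoters of interferon-stimulated genes (52.3%), against 8.56% of all. TTTCCCGC was found in 9 of 51 promoters of S phase genes (17.6%), against 1.07% of all, and TTTGGCGC in 7 of 51 (13.7%), against 0.514%. The AP-1 letters TGACTCA were in 6 of 53 promoters of NF-kB target genes (11.3%) and in 0 of 25 of AP-1 and immediate early genes, against 5.2% of all. TCACGTGA, the letters of the CLEAR element bound by TFEB and chosen after the values were seen, were in 6 of 42 lysosomal promoters (14.3%), against 0.974%. These shares cover list members whether or not they were called, so they do not describe the response in these libraries. A match is a run of letters and was not measured as a bound site, and motifs may overlap one another. Pcna, Ccne1, Tlr2, Tnf, Ccl3, Cmpk2, Psap, Ctsz, Hexa and Tpp1, whose values follow, hold no match to the letters of their list in this window, nor does a second Tnfaip3 entry of the table.

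Interferon-beta was not detected. Ifnb1, the interferon-beta gene, had 0 counts in all 4 libraries, which allows up to 3 in each, as did Il6, an inflammatory cytokine that STING signalling can raise through NF-kB. None of 21 interferon genes reached the minimum for testing. Ifng had 16 counts in uniSTING 1 and 0 in the other 3 libraries.

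The genes that carry the signal from STING to interferon mostly did not pass the test between uniSTING and Mock. Tmem173, which encodes STING, had 39.5 and 42.3 CPM in Mock against 41.1 and 43.9 CPM in uniSTING, with overlapping groups and a log2 change of 0.03. The delivered mRNAs themselves were not analysed here. Tbk1 stood at 78.9, 83.4, 80.5 and 83.9 CPM, and Irf3 at 33.1, 36.8, 38.6 and 37.4 CPM, and neither passed the test. Of 20 STING pathway genes tested, 2 rose (10%, against 12.6% of all genes) and 4 fell (20%, against 15.7%), with a median log2 fold change of 0.02 against -0.01 over all genes. Ikbke, a kinase related to TBK1, fell from 85.2 and 89.7 CPM to 66.5 and 63.3 CPM, a log2 change of -0.46 (adjusted p = 2.5e-05). Traf3, an adaptor upstream of TBK1, fell by 0.24, and Samhd1, a dNTP hydrolase that restricts viruses, fell by 0.27.

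Interferon-stimulated genes showed a small and mixed response. Of 63 tested, 12 rose (19.0%, against 12.6% of all genes) and 6 fell (9.52%, against 15.7%), with a median of 0.06. Without Mock 1, or without uniSTING 2, 3 fell. Isg15 had 25 and 27 counts in Mock and 58 and 60 counts in uniSTING, a log2 fold change of 1.07 (adjusted p = 0.00105). Rsad2 (viperin, an antiviral radical SAM enzyme) rose from 0.448 and 0.476 CPM to 1.78 and 1.39 CPM, a log2 fold change of 1.72 with a standard error of 0.28 (adjusted p = 0.00041). Both genes were low, and the uniSTING libraries lay above the Mock libraries for each.

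Cmpk2, a nucleotide kinase that lies next to Rsad2, had 1 count over the Mock libraries and 21 counts over the uniSTING libraries, a ratio of 19.8 with an exact 95% interval of 3.19 to 820. Ifi204, of the IFI200 family of DNA sensors, rose from 4.47 and 3.33 CPM to 7.03 and 7.89 CPM. Ifitm3, a membrane protein that blocks viral entry, rose from 228.3 and 229.6 CPM to 316.5 and 311.6 CPM, a log2 change of 0.43 (adjusted p = 3.4e-07). Rnf213, which encodes a large ubiquitin ligase, rose by 0.30.

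Other named interferon-stimulated genes did not share a direction. Cxcl10, a chemokine that draws T cells, had 17 counts over the Mock libraries and 16 over the uniSTING libraries, a ratio of 0.889 with an exact 95% interval of 0.42 to 1.87. Ifit1, which binds foreign RNA caps, was 0.565 ± 0.070 CPM in Mock and, in uniSTING, 0.543 ± 0.17 CPM (SD, n = 2). Irf7, the factor that amplifies interferon production, went from 5.76 and 6.31 CPM to 8.71 and 7.93 CPM, and its adjusted p of 0.043 did not hold when any 1 of the 4 libraries was left out, with log2 changes of 0.36 to 0.51. Lgals3bp, a secreted glycoprotein, fell by 0.34.

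Many genes of interferon and other cytokine receptor signalling fell. Among interferon receptors, JAK kinases, STATs and SOCS inhibitors, 14 of 27 tested genes fell (51.9%, against 15.7% of all genes) and 0 rose, with a median of -0.16. Ifnar1, a chain of the type I interferon receptor, went from 119.1 and 119.2 CPM to 96.7 and 98.4 CPM, a fall of 0.32 (adjusted p = 1.8e-05). Socs3, a feedback inhibitor of cytokine receptors, went from 46.6 and 46.5 CPM to 35.7 and 34.9 CPM, a fall of 0.43. The uniSTING libraries lay below the Mock libraries in both. Stat5b, a factor activated by many cytokines, fell by 0.31, and the phosphatase gene Ptpn6 (SHP-1) fell by 0.25.

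Many NF-kB target genes were lower. Of 56 tested, 28 fell (50%, against 15.7% of all genes) and 4 rose (7.14%, against 12.6%), with a median of -0.25 and no called member changed 2-fold. Tnf, an inflammatory cytokine, went from 42.2 and 41.8 CPM to 29.0 and 28.5 CPM, a log2 change of -0.57 with a standard error of 0.075 (adjusted p = 7.3e-05). Ccl3, a chemokine for monocytes, went from 159.4 and 164.4 CPM to 114.8 and 111.8 CPM. Tlr2, the receptor for bacterial lipopeptides, went from 140.0 and 136.9 CPM to 90.2 and 88.7 CPM, a log2 change of -0.66 (adjusted p = 1.9e-08). In each of these the groups were separate, with uniSTING below Mock. Plau, the plasminogen activator urokinase, had 864.7 and 845.1 CPM in Mock and 610.3 and 613.7 CPM in uniSTING. Its fall of 0.51 had an adjusted p of 2.6e-09, below that of every other gene that fell except Eef2.

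Several feedback inhibitors and subunits of NF-kB, many of which are its own targets, fell too. Nfkbia, whose product IkB-alpha holds NF-kB in the cytosol, went from 84.6 and 88.4 CPM to 58.1 and 55.5 CPM, a log2 change of -0.64 with a standard error of 0.056 (adjusted p = 2.1e-06). Tnfaip3, which encodes the ubiquitin-editing inhibitor A20, went from 28.8 and 29.6 CPM to 21.3 and 19.9 CPM, a log2 change of -0.54. These are the genes whose promoters with NF-kB letters are printed above. Among the 26 subunits, kinases and inhibitors tested, 12 fell (46.2%, against 15.7% of all genes) and 2 rose (7.69%, against 12.6%). Their median was -0.21, and 12 were not called. Nfkb2 (p100), Nfkb1 (p105) and Relb fell by 0.40, 0.25 and 0.73. Of the kinase subunits, Chuk and Ikbkb were not called, at log2 changes of 0.00 and -0.08. The members that rose were Nfkbid, an atypical IkB protein, by 0.49 and Ikbkg (NEMO) by 0.23, and neither call held without uniSTING 2 (0.44 and 0.17).

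Cytokine genes moved in both directions. Of 32 cytokines and chemokines tested, 3 rose (9.38%) and 6 fell (18.8%), shares near those of all genes. Spp1 (osteopontin), a secreted phosphoprotein of macrophages, went from 6452 and 6500 CPM to 7864 and 7646 CPM. Ccl9, a chemokine for CCR1, rose by 0.40, and Il1rn, the antagonist of the interleukin-1 receptor, by 0.53. Tgfb1 fell by 0.28.

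AP-1 and immediate early genes, many of which respond to kinase signalling within minutes, were lower in 16 of 30 cases (53.3%, against 15.7% of all genes). The list had 1 higher member and a median of -0.18. Jun had 198.2 and 201.8 CPM in Mock and 145.8 and 161.3 CPM in uniSTING, a fall of 0.41 (adjusted p = 4.6e-06). Maf, a factor of resident macrophages, went from 111.6 and 110.3 CPM to 65.3 and 68.0 CPM, and Zfp36l1, which binds AU-rich elements of mRNA, from 108.6 and 115.9 CPM to 65.8 and 66.7 CPM. These 2 falls, of 0.76 and 0.79, were among the larger ones of well expressed genes. Myc, a driver of growth, was low and had 29 and 51 counts in Mock and 13 and 14 counts in uniSTING, a log2 change of -1.67 (adjusted p = 0.00061).

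The ERK feedback genes Etv5, Dusp4 and Spred1 fell by 0.40, 0.31 and 0.24, among 5 of 20 tested that fell (25%, against 15.7% of all genes) and 0 that rose. In the plot of list shares the 4 signalling lists for interferon receptors, NF-kB subunits, NF-kB targets and AP-1 lie on the side of lower genes. Some lists share members, so they are not independent. Nfkb2 and Nfkbia are in both NF-kB lists, and Ier3 is in the AP-1 and ERK feedback lists.

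**Figure D3:**
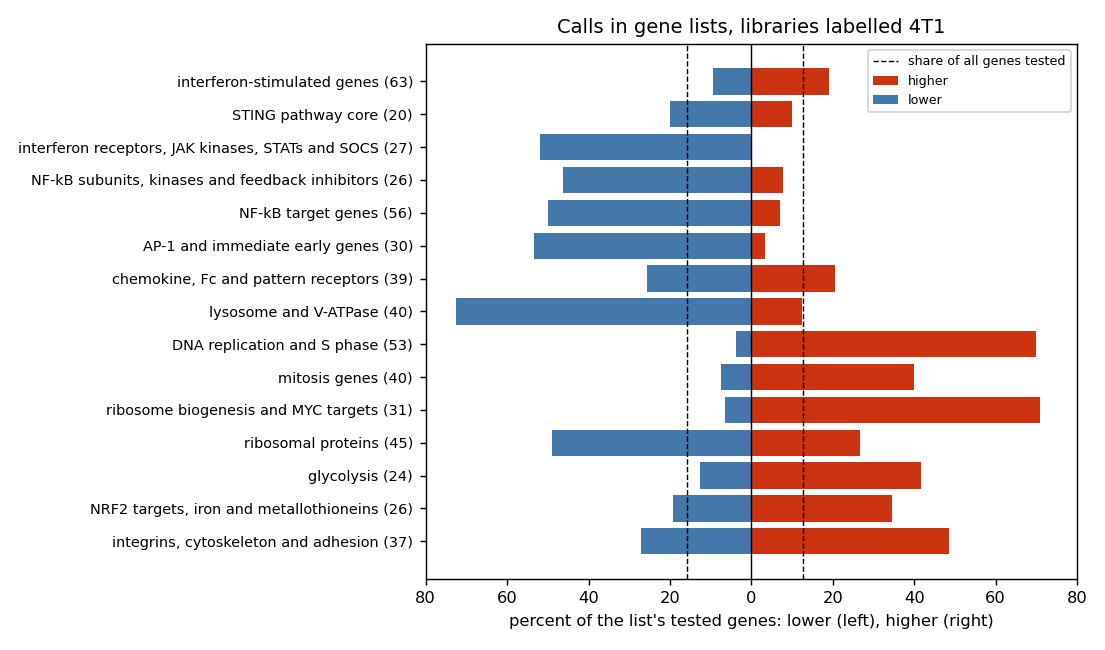
Percent of the tested genes of 15 lists that were called higher (right) or lower (left) in uniSTING, with the number tested in brackets and dashed lines at the shares over all genes tested, 12.6% higher and 15.7% lower. Lysosomal genes reach 72.5% lower, and S phase and ribosome biogenesis genes 69.8% and 71.0% higher.

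Receptors and surface proteins of macrophages changed in both directions. Mrc1, the mannose receptor, fell from 11.3 and 10.2 CPM to 4.12 and 4.70 CPM, a log2 change of -1.31 with a standard error of 0.16 (adjusted p = 3.8e-05). Marco, a scavenger receptor, fell from 60.8 and 58.5 CPM to 34.9 and 35.7 CPM. Cd36, a receptor for fatty acids and oxidized lipoproteins, rose from 34.9 and 33.1 CPM to 58.3 and 57.1 CPM, and Ccr1, a receptor for CCL3 and related chemokines, from 4.36 and 3.73 CPM to 8.20 and 8.08 CPM. So mannose and MARCO receptors were lower while CD36 and CCR1 were higher, each with separate groups. The call for Cd36 did not hold in DESeq2's Wald test (0.73).

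Over the 39 chemokine, Fc and pattern receptors tested, 8 rose (20.5%, against 12.6% of all genes) and 10 fell (25.6%, against 15.7%). Cd14, the co-receptor of TLR4, rose by 0.35, and Tlr4 itself went from 52.2 and 52.0 CPM to 65.6 and 61.2 CPM. Fcgr2b, the inhibitory receptor for IgG, fell by 0.46, and Nod1, a sensor of bacterial wall fragments, by 0.63. Among 18 macrophage markers tested, 4 rose (22.2%, against 12.6% of all genes) and 5 fell (27.8%, against 15.7%), Gpnmb falling by 0.37 and Msr1, another scavenger receptor, rising by 0.28.

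General leukocyte genes were lower in part. Of 25 leukocyte and myeloid markers, 11 fell (44%, against 15.7% of all genes) and 4 rose (16%, against 12.6%). Fcer1g, the common gamma chain of Fc receptors, went from 351.9 and 348.6 CPM to 256.4 and 260.7 CPM, and Laptm5, a lysosomal membrane protein of leukocytes, from 729.9 and 744.6 CPM to 542.4 and 557.6 CPM. Coro1a, an actin-binding protein, rose from 318.5 and 309.9 CPM to 402.2 and 398.8 CPM. Ptprc and Spi1 were not called (log2 changes of 0.03 and -0.06), while Tyrobp fell by 0.20 and Csf1r by 0.10. As these are bulk samples, fewer cells of a type and less RNA per cell cannot be told apart.

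Of 23 genes of class I antigen presentation tested, 5 rose (21.7%) and 4 fell (17.4%), and of 17 of class II presentation and co-stimulation 2 rose (11.8%) and 2 fell (11.8%), against 12.6% and 15.7% of all genes. The class I genes B2m, H2-D1 and H2-K1 fell by 0.34, 0.20 and 0.16, B2m from 801.3 and 788.7 CPM to 651.0 and 633.0 CPM. The immunoproteasome subunit Psmb8 rose from 45.1 and 47.2 CPM to 66.4 and 63.1 CPM, a log2 change of 0.46. Cd74, the invariant chain of class II, rose by 0.48 from 77.2 and 73.4 CPM, and the maturation marker Cd83 fell by 0.62 from 69.7 and 70.9 CPM to 47.0 and 46.3 CPM. H2-K1 and H2-D1 are close copies within a gene family, so their counts of uniquely mapped reads are uncertain.

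The genes of the next paragraphs had the largest falls and rises at 5 CPM or more once pseudogenes, unnamed models, antisense and mitochondrial genes were left out, and they belonged to many functions. Cd24a, a surface sialoglycoprotein, fell from 38.2 ± 0.28 to 16.4 ± 0.76 CPM (SD, n = 2) and Cd93, a C-type lectin-like receptor, from 71.8 ± 1.3 to 35.1 ± 0.46 CPM, log2 changes of -1.26 and -1.06. Pianp and Selenbp2 fell by 1.91 and 1.44 from levels of 6.32 and 8.38 CPM. Card14, Scml4, Lrp4, Abca6, Txlnb, Asb10, Slc7a4, Dbp, Ulk4 and Arap2 fell by 0.83 to 1.06. Without Mock 2 or uniSTING 2, Txlnb was no longer called (-0.77 and -0.76), and without Mock 1 or uniSTING 2 the same held for Ulk4 (-0.63 and -0.62). Slc7a4 was no longer called without Mock 1, uniSTING 1 or uniSTING 2 (-0.73, -0.91 and -0.80).

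Among the rises, Procr, the endothelial protein C receptor, went from 13.8 and 13.1 CPM to 24.4 and 27.3 CPM, a log2 change of 0.92 (adjusted p = 4.5e-06). Ptprn, a phosphatase-like protein of secretory granules, rose from 21.6 ± 0.63 to 41.6 ± 0.016 CPM (SD, n = 2), a call that did not hold in DESeq2's Wald test (0.91). Stfa3, Endog, Tiam1, Slc22a4, Uchl1, Klra2, Tspoap1 and Med31 rose by 0.78 to 0.91. The call for Uchl1, a deubiquitinase, did not hold without Mock 1, Mock 2 or uniSTING 1 (0.83, 0.93 and 0.69). Ppih, a splicing cyclophilin, and Tuba1a, an alpha-tubulin, had the largest rises among these, 1.80 and 1.05, and their Mock libraries differed, at 6.32 and 2.74 CPM for Ppih and 14.5 and 24.1 CPM for Tuba1a.

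**Figure D4:**
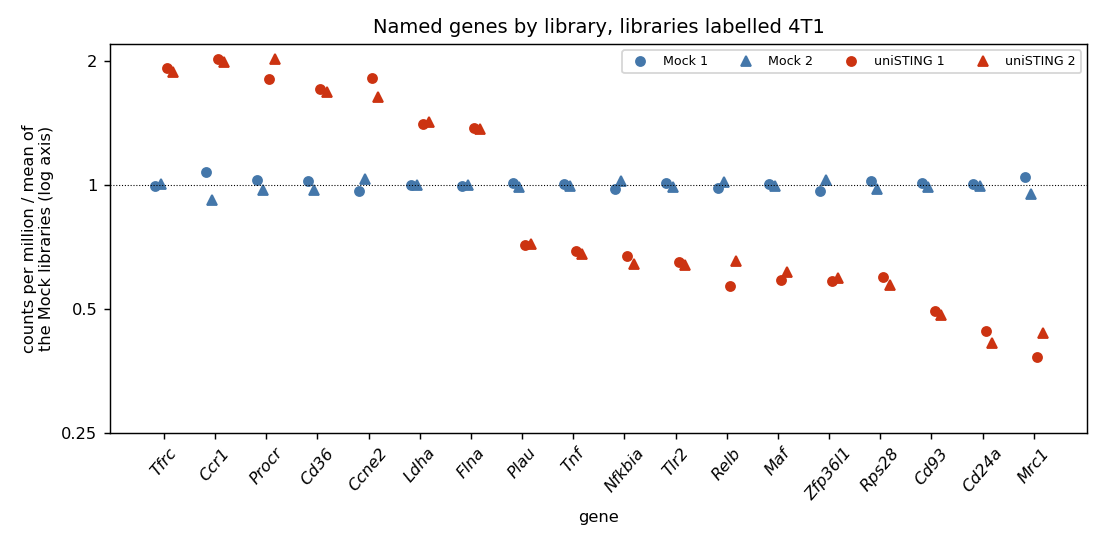
CPM of 18 named genes in each library labelled 4T1, divided by the mean of the 2 Mock libraries (log axis). For each of these genes both uniSTING points lie on 1 side of both Mock points, from about 2 for Tfrc and Ccr1 down to below 0.5 for Cd24a and Mrc1.

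Lysosomal genes fell broadly. The lysosome digests what macrophages take up, with acid supplied by the V-ATPase pump, and it is also where activated STING is degraded. Of 40 genes tested, 29 fell (72.5%, against 15.7% of all genes) and 5 rose (12.5%, against 12.6%), with a median of -0.19 and a range of -0.40 to 0.23. Psap, the precursor of the saposins that aid lipid breakdown, went from 3526 and 3492 CPM to 2753 and 2743 CPM, a fall of 0.38 (adjusted p = 7.3e-09). Hexa, a hexosaminidase subunit, went from 565.9 and 576.3 CPM to 453.8 and 456.0 CPM, and Ctsz, a cathepsin, from 1117 and 1124 CPM to 910.0 and 924.6 CPM.

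The groups were separate for each of these. Cd68, a lysosomal glycoprotein of macrophages, fell by 0.40, Tpp1, a peptidase, by 0.32 and Ctsl, another cathepsin, rose by 0.22 from 1654 and 1651 CPM to 1945 and 1980 CPM. Ctsh, a further cathepsin, and Gla, an alpha-galactosidase, rose by 0.23 and 0.15. The lysosomal transcription factor genes Tfe3 and Mitf fell by 0.33 and 0.25. Tfeb was also called lower, but its call did not hold in DESeq2's Wald test (-0.298). Nor did it hold when any 1 of the 4 libraries was left out (-0.245 to -0.331).

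Genes of DNA replication rose. Of 53 genes of S phase tested, 37 rose (69.8%, against 12.6% of all genes) and 2 fell (3.77%), with a median of 0.18. Pcna, the sliding clamp of DNA polymerase, went from 312.3 and 307.5 CPM to 391.6 and 387.5 CPM, a rise of 0.30 (adjusted p = 2.2e-07). Mcm5, whose promoter with E2F letters is printed above, went from 146.5 and 142.8 CPM to 179.6 and 182.9 CPM. Rrm1, the large subunit of ribonucleotide reductase, rose by 0.22.

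The cyclin E genes, which drive entry into S phase, also rose. Ccne1 went from 34.6 and 36.1 CPM to 52.6 and 51.3 CPM, a log2 change of 0.52, and Ccne2 from 17.1 and 18.2 CPM to 32.2 and 28.9 CPM, a log2 change of 0.75. The 2 S phase genes that fell were subunits of the clamp loader, Rfc1 by 0.16 and Rfc2 by 0.12, and neither call held without uniSTING 2 (-0.14 and -0.11).

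Of 40 mitosis genes tested, 16 rose (40%, against 12.6% of all genes) and 3 fell (7.5%, against 15.7%), with a median of 0.07. Cdk1, the mitotic kinase, went from 97.0 and 90.6 CPM to 119.1 and 121.6 CPM, and Mad2l1, of the spindle checkpoint, from 69.6 and 74.0 CPM to 97.6 and 94.7 CPM. Ube2c, the ubiquitin-conjugating enzyme of mitotic exit, fell by 0.21. Ccnd1, a cyclin of the G1 phase, fell by 0.19 and the inhibitor Cdkn1b (p27) by 0.23, and the latter call did not hold without Mock 2 (-0.19). Among 27 p53 targets tested, 8 fell (29.6%, against 15.7% of all genes) and 4 rose (14.8%, near the 12.6% of all genes).

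Genes of growth rose as well. Of 31 ribosome biogenesis genes and MYC targets tested, 22 rose (71.0%, against 12.6% of all genes) and 2 fell (6.45%, against 15.7%). Their median was 0.16, and 1 of the 2 that fell was Myc itself. Odc1, which starts polyamine synthesis, went from 207.6 and 208.2 CPM to 287.3 and 286.2 CPM, a log2 change of 0.44 (adjusted p = 6.5e-09). Nop16, a factor of ribosome assembly in the nucleolus, went from 94.5 and 91.1 CPM to 123.7 and 125.0 CPM. Mybbp1a and Nop56, also nucleolar, rose by 0.22 and 0.26.

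Genes of the mature translation machinery went the other way in part. Eef2, the elongation factor that moves the ribosome along mRNA, went from 5163 and 5186 CPM to 4206 and 4218 CPM, and fell by 0.32 with a standard error of 0.011 (adjusted p = 7.1e-10). Pabpc1, the poly(A)-binding protein, fell by 0.28 and the initiation factor gene Eif4b by 0.38. These 3 mRNAs belong to a class that begins with a run of pyrimidines and is translated under control of mTOR.

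Of 45 ribosomal protein genes tested, 22 fell (48.9%, against 15.7% of all genes) and 12 rose (26.7%, against 12.6%), with a median of -0.04. Rpl38 went from 180.1 and 175.8 CPM to 120.0 and 119.1 CPM, a fall of 0.60, and Rpl37 fell by 0.56. Rps28, a ribosomal protein gene outside that list, went from 185.1 ± 6.2 to 108.2 ± 3.1 CPM (SD, n = 2), a fall of 0.80. Rplp2 and Rpl12 rose by 0.31 and 0.23. Ribosomal protein genes have many pseudogene copies, so counts of uniquely mapped reads are uncertain for them. Without Mock 2, 14 fell in place of 22.

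**Figure D5:**
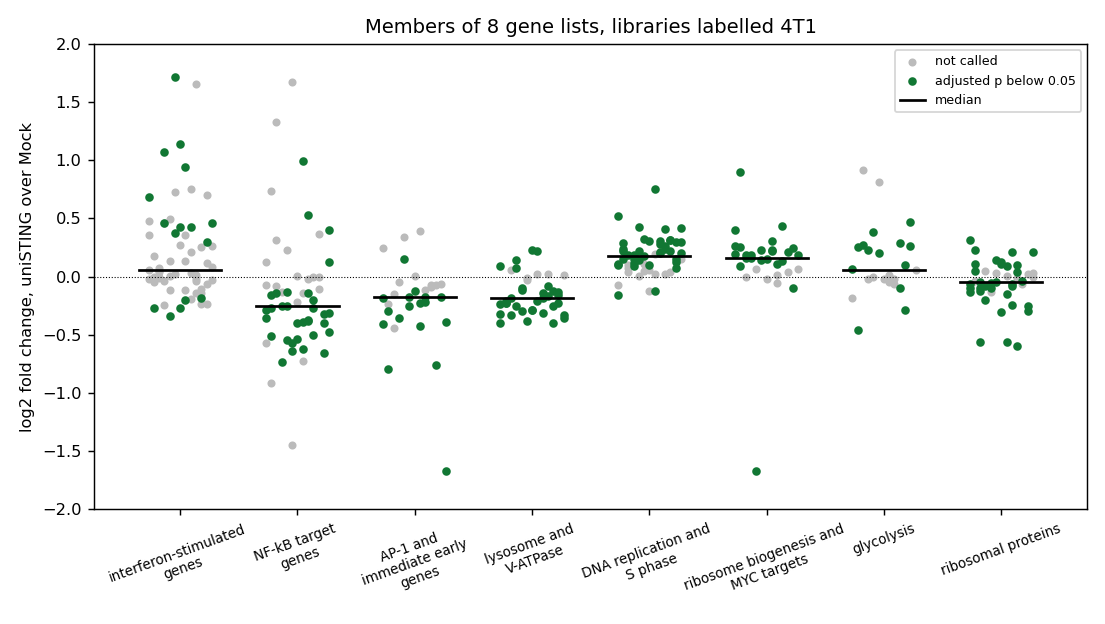
Log2 fold changes of the tested members of 8 lists, with called members in green and a bar at the median of each list. Most S phase and ribosome biogenesis genes lie above 0 and most NF-kB, AP-1 and lysosomal genes below it, and 5 members lie beyond the axis limit of 2.

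Many glycolysis genes rose. Ldha, the lactate dehydrogenase subunit, had the smallest adjusted p of all genes (3.1e-10) and went from 1506 and 1505 CPM to 2120 and 2139 CPM, a log2 change of 0.47 with a standard error of 0.014. Of 24 genes tested, 10 rose (41.7%, against 12.6% of all genes) and 3 fell (12.5%, against 15.7%). Pgk1, Eno1, Pkm and Pgam1, enzymes of the later steps, rose by 0.29, 0.26, 0.23 and 0.28. The lactate exporter gene Slc16a3 rose by 0.39, and Pfkm and Hk2, of the upper steps, fell by 0.46 and 0.28. Of 26 genes that answer to low oxygen, 8 rose (30.8%) and 8 fell (30.8%).

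Mitochondrially encoded mRNAs were higher in 8 of 12 tested (66.7%, against 12.6% of all genes) and lower in 1 (8.33%, against 15.7%). Their median was 0.30, but the sum over the list changed less, from 21550 and 21310 CPM to 22790 and 22510 CPM. The complex I genes mt-Nd4l and mt-Nd4 rose by 0.92 and 0.33, mt-Nd4l from 34.3 and 33.2 CPM to 65.4 and 64.6 CPM, while mt-Nd1 fell by 0.09. Of 32 nuclear genes of oxidative phosphorylation, 9 rose and 9 fell (28.1% each, against 12.6% and 15.7% of all genes).

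Among genes of iron and redox balance, Tfrc rose most clearly. Tfrc, the receptor that brings in iron bound to transferrin (chr16:32427738-32451612 on GRCm39), went from 145.7 and 147.8 CPM to 282.7 and 277.3 CPM. Its log2 change of 0.90 had a standard error of 0.033 (adjusted p = 1.9e-09). The ferritin genes Fth1 and Ftl1, which store iron, fell by 0.10 and 0.17, and the exporter gene Slc40a1 (ferroportin) fell by 0.27 from 88.5 and 85.0 CPM to 76.7 and 70.1 CPM. Thus the importer was higher while both ferritin genes and the exporter were lower.

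Prdx1, a peroxidase and NRF2 target, rose from 1023 and 985.7 CPM to 1373 and 1337 CPM, while Nfe2l2, which encodes NRF2, fell by 0.36. Of the 26 genes of this list, 9 rose (34.6%, against 12.6% of all genes) and 5 fell (19.2%, against 15.7%). Hsp90aa1, the inducible HSP90, rose by 0.36, and among 17 heat shock genes 7 rose (41.2%) and 4 fell (23.5%). Cct3, a subunit of the chaperonin that folds actin and tubulin, rose from 492.7 ± 0.15 to 661.2 ± 7.4 CPM (SD, n = 2).

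Cytoskeletal and adhesion genes were higher in 18 of 37 tested (48.6%, against 12.6% of all genes) and lower in 10 (27.0%, against 15.7%). Flna, the actin crosslinker filamin A, went from 342.9 and 344.5 CPM to 472.8 and 471.5 CPM, and Lgals3, a galactoside-binding lectin, from 649.7 and 658.3 CPM to 926.4 and 923.7 CPM. Lgals3 rose by 0.47 and the calcium-binding gene S100a10 by 0.40. Myo1d, a motor of the membrane cortex, fell by 0.65 from 173.7 ± 2.8 to 112.8 ± 3.7 CPM (SD, n = 2). Rasgrp3, an activator of RAS and RAP1, and Mapkapk2, the p38 effector kinase that stabilizes cytokine mRNA, fell by 0.71 and 0.49.

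Several lipid genes rose. Of 24 cholesterol genes tested, 8 rose (33.3%, against 12.6% of all genes) and 2 fell (8.33%, against 15.7%), with rises of 0.11 to 0.50. Among 23 genes of LXR targets and lipid storage, 10 rose (43.5%) and 4 fell (17.4%). Plin2, the coat of lipid droplets, went from 110.1 and 105.3 CPM to 128.2 and 129.3 CPM. Lpl, the lipoprotein lipase, rose by 0.32 from 1076 and 1055 CPM to 1349 and 1365 CPM, a call that did not hold in DESeq2's Wald test (0.31). Among secreted proteins, Slpi, a protease inhibitor, went from 214.2 and 212.7 CPM to 145.9 and 146.5 CPM, and F13a1, a clotting transglutaminase of macrophages, fell by 0.79. Mcl1 and Bcl2l1, which protect from apoptosis, fell by 0.28 and 0.27, and Bnip3, of mitophagy, rose by 0.36.

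The response was tested against that of the other sets, which share no library with it. In the mRNA libraries labelled DC2.4, 31.1% of genes had a response that differed from this one: 2251 (15.1%) were higher in the 4T1 label and 2377 (16.0%) lower. Of the 63 interferon-stimulated genes, 34 had a lower response in the 4T1 label and 4 a higher one, and their median log2 fold change was 0.06 here and 0.92 there. Since the markers put different cells under the 2 labels, cell type and response cannot be told apart in this difference.

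The vesicle libraries expressed the same leukocyte genes, and 28% of genes had a response that differed from theirs, 1929 (13%) higher and 2228 (15%) lower in the 4T1 label. Interferon-stimulated genes had a lower response in the 4T1 label in 32 of 63 cases and a higher one in 2, with a median of 0.51 in the vesicle libraries. Lysosomal genes had a lower response in 29 of 40 and a higher one in 5, with a median of 0.08 after vesicles against -0.19 here. Carrier, agent and time are not matched between these sets.

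Groups that rose here also differed. S phase genes had a higher response than after vesicles in 24 of 53 and a lower one in 2, and ribosome biogenesis genes in 25 of 31 and 1. The response of Tfrc was higher by 1.05 (adjusted p = 7.4e-09). NF-kB target genes had a lower response than after vesicles in 21 of 56. They had a higher one in 7, near the share of all genes, and their median was -0.01 after vesicles. The response of Relb was lower by 1.09.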

How the data were processed

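RNA from 12 libraries was sequenced, and the 4 labelled 4T1 are described. The authors deposited raw counts per gene, made with featureCounts of Subread 2.0.1 on read pairs over exons grouped by gene, with Ensembl release 103 and no strand option, per the file headers. HISAT2 and GRCm39 are named in the submitters' processing notes, and the HISAT2 version and trimming are not given in the sources used here. Libraries were made with a NEBNext Ultra kit, per the labels' protocols. Strand is not stated there, so reads of overlapping and antisense genes cannot be told apart. Depth was 14.1 to 26.0 M counts per library.

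The counts were tested with edgeR 4.0.16 in R 4.3.3 (quasi-likelihood F test, TMM factors, filterByExpr by group, 1 mean per group over all 12 libraries, Benjamini-Hochberg adjustment over 14863 genes, threshold 0.05). Fold changes are fitted and scaled by TMM, and CPM are counts over the library total without TMM. Standard errors given are the size of the log2 change over the square root of the F statistic. They therefore restate the test and are not a separate measure of precision. Files listed 53647 genes, of which 52093 matched a symbol. Gene types came from GENCODE M21 and promoters from RefSeq on GRCm38.p6. Floors and intervals (exact, 95%) cover counting error only. Figures were drawn with matplotlib 3.10.9, and the fit was tested on simulated data.

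Genes were named by a rule: the 15 largest rises and falls at 5 CPM or more with separate groups (pseudogenes, unnamed models, antisense and mitochondrial genes left out), the 10 smallest adjusted p in each direction, 18 fixed genes and up to 5 called members of each of 44 lists. Some further list members were named after their values were seen. Members and lists were chosen with earlier results of these data known. The preparation numbers are shared by the groups, and the fit without a preparation block is reported. Over 10705 genes, the difference between preparations correlated between Mock and uniSTING with a Pearson r of 0.69 and a Spearman rho of 0.023, both across genes, which are not independent. Alternatives were DESeq2 1.42.0 (size factors, Wald test), upper-quartile factors, other filters, limma-voom (limma 3.58.1), fits of 4 or 8 libraries, a replicate block and leaving out each library. Leaving out a preparation from both groups was added after the data were seen.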

Additional observations from a re-analysis of the deposited data

Results flagged for a closer look

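Several genes differed in their response between the libraries labelled 4T1 and another set by a test of the difference itself (edgeR quasi-likelihood test, adjusted p below 0.05), given as the log2 response of the 4T1 label minus that of the other set. Against the mRNA libraries labelled DC2.4, the difference was -2.57 for Cxcl10, -2.31 for Ifit1, -1.69 for Irf7, -2.71 for Tnf, -1.12 for Nfkbia and -0.45 for Tnfaip3. Against the vesicle libraries it was -3.68 for Cxcl10, -3.12 for Ifit1, -1.55 for Rsad2, -1.62 for Irf7, -0.70 for Nfkbia and -0.55 for Tnfaip3. Among the leukocyte genes that mark these cells, the difference from the vesicle libraries was -0.22 for Spi1, -0.25 for Tyrobp and -0.09 for Csf1r. In each of these genes the response was lower in the libraries labelled 4T1. No group has enough libraries for a check of single outlying values.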

How the results depend on the processing

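Of 248 named genes (243 to 248 could be fitted), 0 changed direction under 15 alternative settings. Calls were lost for 12 with DESeq2's Wald test, for 0 or 1 under each other choice of factors, filter, tool or libraries, and for 13 to 19 when 1 library was left out, and for 25 and 45 without replicate 1 and replicate 2 of both groups. DESeq2's Wald test gave 52 genes at least 2-fold higher and 37 lower, and no filter on low counts gave 163 lower, in place of 165 and 104. Without replicate 1 or replicate 2 of both groups, a fit in which each lone library is assumed to vary like the other groups, 1011 or 957 genes were higher (main 1878) and 1236 or 1025 lower (main 2331), with 81 or 65 at least 2-fold higher and 43 or 41 lower. The same fits called lower 10 and 10 AP-1 genes (main 16) and 3 or 1 interferon-stimulated genes (main 6). Without replicate 1 of both groups, 9 interferon receptor and JAK/STAT genes were lower (main 14). Without replicate 2 of both groups, 17 NF-kB targets were lower (main 28), 6 interferon-stimulated (main 12) and 18 S phase genes (main 37) were higher, and 2702 genes differed from the vesicle response (main 4157). With 1 library left out, 1480 to 1808 genes were lower, 87 to 131 at least 2-fold higher, 57 to 76 at least 2-fold lower, 3 to 5 interferon-stimulated genes lower and 14 to 20 ribosomal protein genes lower. The smaller fits hold fewer samples. Upper-quartile factors raised the share of higher genes among those called from 44.6 to 52.1%.

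The labels do not say what a preparation number marks, and there are 2 pairs. Preparation 1 of both groups shared transcripts of other tissues that preparation 2 lacked, such as Ins2. With preparation as a replicate block, 4432 genes were called (1956 higher), of which 4114 were among the 4209 called without it. Genes under 5 CPM limit the precision of folds, and 0 counts allow up to 3.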

Other observations

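The interferon-gamma gene Ifng and Gzmb, a granule protease of cytotoxic lymphocytes, had 16 and 60 counts in uniSTING 1 and 0 in the other 3 libraries labelled 4T1, and neither was called. Ins1, the second mouse insulin gene, and Scgb1a1, a secreted protein of the airway, followed Ins2 and Sftpc, with 233 and 225 counts in Mock 1, 306 and 397 in uniSTING 1 and 0 in preparation 2 of both groups. Of 10705 genes with at least 200 summed counts, 11 differed at least 2-fold between preparations in both groups in the same direction. The part of these transcripts in the results above was not tested.

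Of 35 genes of ER stress and the integrated stress response, 9 rose and 9 fell (25.7% each, against 12.6% and 15.7% of all genes), with a median log2 fold change of -0.05. The shares of all genes were not matched to these 35 genes for level or mRNA length. Of 33 genes of the BCL2 family, necroptosis and pyroptosis, 7 rose (21.2%) and 4 fell (12.1%), and of 32 genes of matrix and TGF-beta signalling 4 rose (12.5%) and 8 fell (25%).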
